A study of Mus musculus with 6 samples.

Results

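The glucocorticoid receptor and 5 genes around it were read in primary mouse gingival fibroblasts, irradiated or not with an Er:YAG laser and labelled 3 h. The 6 genes were chosen by symbol: Nr3c1, Tsc22d3, Fkbp5, Sgk1, Zbtb16 and Hsd11b1. Of these, 5 were found among 20665 genes and all 5 passed the filter on low values (16141 genes tested), while Zbtb16, a zinc finger transcription factor induced by glucocorticoids, is not analysed here. No measured value enters the choice by symbol, but the set was put together with earlier results of these data known, so its values between irradiated and non-irradiated cells are given as a description. In 3 libraries the fibroblasts, wild-type cells of the C57BL/6 strain grown as primary cultures, had received 3.9 J/cm2 of Er:YAG laser light from 25 cm away, in dishes of 35 mm. Non-irradiated cells of the same kind, also taken at 3 h, gave the remaining 3 libraries. Both groups were grown in medium with fetal bovine serum, and the labels name no steroid given to either. Same-numbered libraries of the groups are treated as pairs, and the labels do not say if a number stands for an animal, a culture or a day. The p-values below therefore reflect how far these 6 libraries differ, which can include technical spread.

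Glucocorticoids are steroid hormones that enter the cell and bind the receptor encoded by Nr3c1, which waits in the cytoplasm in a complex with Hsp90 and its co-chaperones. The bound receptor moves into the nucleus, binds DNA at glucocorticoid response elements and switches on genes such as Tsc22d3, Fkbp5, Sgk1 and Zbtb16, while it restrains many inflammatory genes. In fibroblasts of the gum, as elsewhere, glucocorticoids are known for dampening cytokine, prostaglandin and matrix metalloproteinase genes.

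The libraries held 45178137 to 59904715 gene-assigned reads. Values are normalized counts, gene counts divided by 1 size factor per library, and a gene near 1000 normalized counts rests on about that many reads. All 10 fibroblast marker genes looked up were tested, and together they summed to 1985988 to 2786038 normalized counts in irradiated and 1802898 to 2953823 in non-irradiated libraries. Endothelial markers (4 of 4 tested) summed to 186 to 600.4 in irradiated and 127 to 617 in non-irradiated libraries, and immune markers (2 of 5 tested, Adgre1 and Cd3e not analysed here) to 74.1 to 203 in irradiated and 106 to 236 in non-irradiated libraries. Epithelial markers (1 of 5 tested, Krt5 and Krt14 not analysed here) summed to 13.5 to 60.7 in irradiated and 15.5 to 18.3 in non-irradiated libraries. Glial and muscle markers (4 of 5 tested) summed to 1699.6 to 4545 in irradiated and 1711 to 3317 in non-irradiated libraries, with Myh11, a smooth muscle myosin that averaged 1457 over the 6 libraries, as the highest. Each sum takes in all genes of its list found among the 20665, also those under the filter on low values, such as Krt8 and Ptprc. The summed levels of the groups overlapped for each of the 5 marker lists. In bulk RNA, fewer cells of a type and less RNA per cell cannot be told apart.

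Between irradiated and non-irradiated cells the 5 genes differed by small folds: Sgk1 stood 1.16-fold as high in irradiated cells, Nr3c1 1.03-fold, Fkbp5 0.961-fold, Hsd11b1 0.901-fold and Tsc22d3 0.899-fold. Of the 5 genes, 0 passed an adjusted p of 0.05 in limma with the replicate number as a block, fitted over all 16141 genes, where 3 genes (0.0186%) passed; edgeR and DESeq2 on reads recovered from the values called 0 of the 5 as well. At an unadjusted p under 0.05 there was 1 of the 5, Sgk1, against 3.26% of all genes (1.93% higher and 1.33% lower). Of the 5, 0 passed in the authors' deposited table, against 0.159% of all genes with an adjusted p. The groups did not overlap for 1 of the 5, Tsc22d3, against 4.73% of all genes (2.08% higher, 2.65% lower), and 2 of the 5 had the same direction in 3 of 3 pairs, against 22.8%. By replicate number the libraries differed more: Hsd11b1, Sgk1, Fkbp5 and Nr3c1 differed between replicate numbers, and Tsc22d3 did not pass that test.

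**Figure D1:**
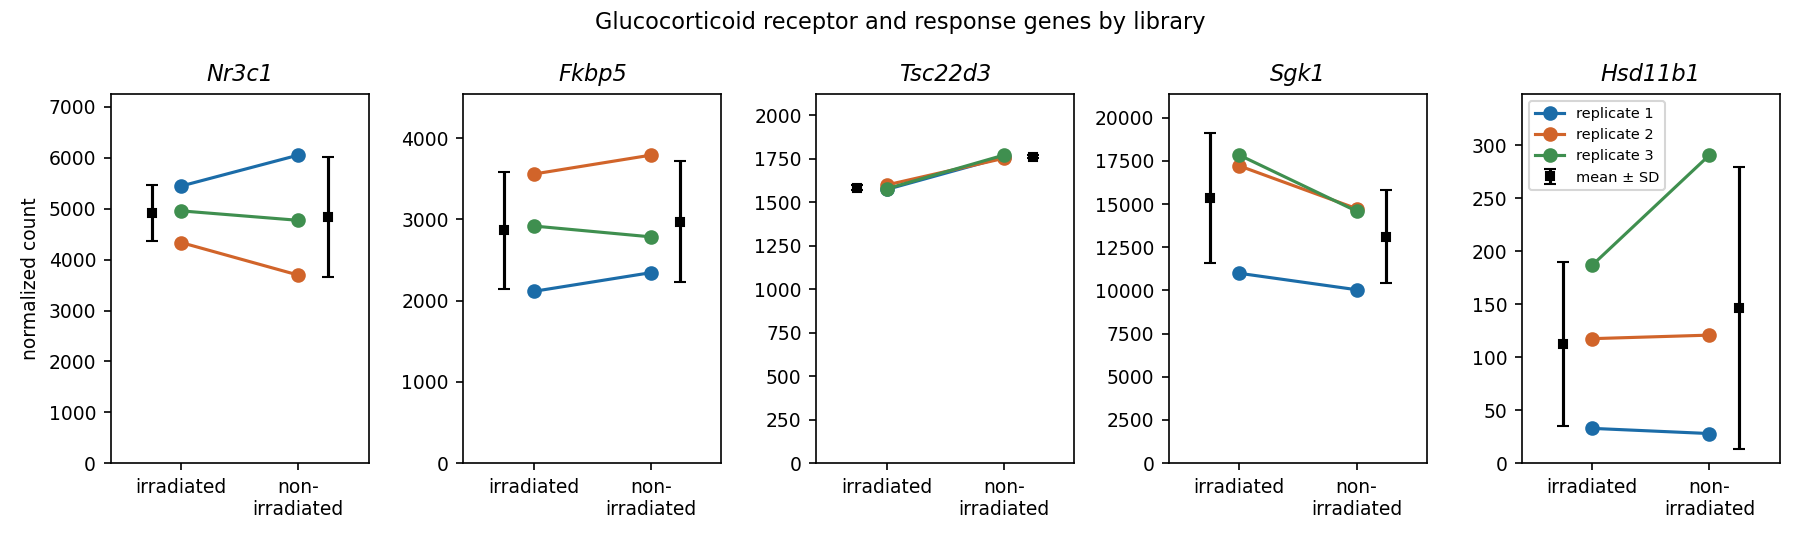
Normalized counts (vertical axes from 0) of the 5 genes in each library, irradiated on the left and non-irradiated on the right; coloured lines join libraries of the same replicate number, and black squares with bars give the mean and SD of each group (n = 3). Lines of different replicate numbers lie apart for Nr3c1, Fkbp5 and Hsd11b1 and that of replicate 1 for Sgk1, while for Tsc22d3 the 3 lines coincide and the irradiated libraries (1574 to 1599.6) lie below the non-irradiated ones (1753 to 1772).

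Nr3c1 (ENSMUSG00000024431.16) encodes the receptor itself. It had 5445, 4336 and 4958 normalized counts in irradiated libraries 1, 2 and 3, against 6054, 3696 and 4772 in the non-irradiated libraries of the same numbers. The groups overlapped, and the library of replicate 2 was the lowest in both of them. Its mean was 4913 ± 556 in irradiated and 4841 ± 1180.5 in non-irradiated cells (SD, n = 3 each), a log2 fold change of 0.04 ± 0.10 (SE). The log2 ratios within the pairs were -0.15, 0.23 and 0.06, so the pairs did not share a direction, and without both libraries of replicate 2 the log2 fold change was -0.05. Per kilobase of exon Nr3c1 lay at 481 to 788 normalized counts, with a median of 633.

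Fkbp5 (ENSMUSG00000024222.18) encodes FKBP51, an Hsp90 co-chaperone that lowers the receptor's affinity for hormone and is itself switched on by the receptor. It had 2114, 3557 and 2918 normalized counts in irradiated libraries 1, 2 and 3, against 2344, 3790.2 and 2784 in non-irradiated ones. The groups overlapped almost entirely, and replicate 2 was the highest and replicate 1 the lowest in both. The means were 2863 ± 723 in irradiated and 2973 ± 741 in non-irradiated cells (SD, n = 3 each), a log2 fold change of -0.06 ± 0.09 (SE). Within the pairs the log2 ratios were -0.15, -0.09 and 0.07.

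Tsc22d3 (ENSMUSG00000031431.14) encodes GILZ, a leucine zipper protein that mediates part of the anti-inflammatory action of glucocorticoids. It had 1574, 1599.6 and 1578 normalized counts in irradiated libraries 1, 2 and 3, against 1761, 1753 and 1772 in non-irradiated ones. Each irradiated library lay below each non-irradiated one, a separation in this direction that 2.65% of all genes tested also had. The log2 fold change was -0.15 ± 0.09 (SE in limma), with pair ratios of -0.16, -0.13 and -0.17, and it did not pass over all genes. Across the 3 pairs the standard error of the mean ratio was 0.01, far below the SE in limma, which draws each gene's spread towards that of genes with like levels. The SD within groups was 13.9 normalized counts in irradiated and 9.28 in non-irradiated libraries, while counting error by itself gives 40.0 in irradiated and 41.7 in non-irradiated libraries. A spread below counting error in both groups was found in 10 of the 7230 genes that averaged 1000 normalized counts or more (0.138%), Tsc22d3 among them, and in 0.936% of all genes tested. This comparison was made after the values were seen.

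Sgk1 (ENSMUSG00000019970.16) encodes a serum- and glucocorticoid-regulated kinase that controls ion channels and cell survival, and which serum and cell shrinkage also induce. It had 10996, 17215 and 17839 normalized counts in irradiated libraries 1, 2 and 3, against 10044, 14739 and 14593 in non-irradiated ones. It was higher in 3 of 3 pairs, as were 11.8% of all genes tested, but the groups overlapped because both libraries of replicate 1 lay below the other four. The means were 15350.2 ± 3784 in irradiated and 13125 ± 2669.7 in non-irradiated cells (SD, n = 3 each), a log2 fold change of 0.21 ± 0.08 (SE). The pairs were 9.48%, 16.8% and 22.2% higher, and the 95% counting intervals of the pair ratios of replicates 1 (log2 0.09 to 0.17) and 3 (0.26 to 0.32) did not touch. Over all genes Sgk1 did not pass in limma (adjusted p = 0.995), nor in the authors' deposited table, which gives a log2 fold change of 0.21 with an adjusted p of 1 from DESeq2. Without the replicate block the unadjusted p of Sgk1 in limma was 0.378, against 0.0206 with it.

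**Figure D2:**
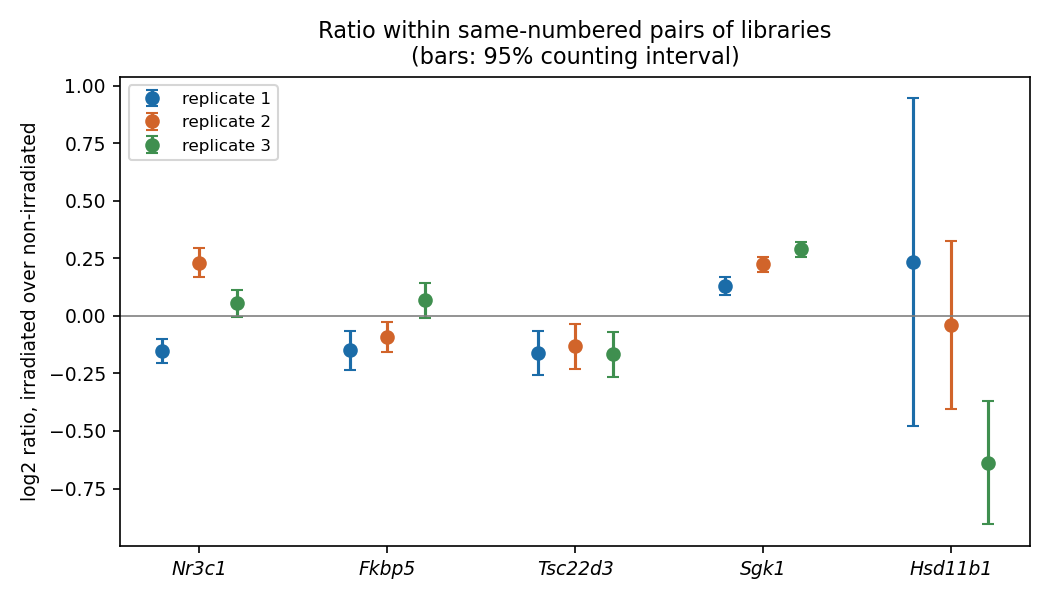
Log2 ratio of the irradiated over the non-irradiated library of the same replicate number (vertical axis) for the 5 genes, with bars for the 95% interval that counting error gives. The 3 pairs lie between 0.13 and 0.29 for Sgk1 and between -0.17 and -0.13 for Tsc22d3, while those of Nr3c1, Fkbp5 and Hsd11b1 fall on both sides of 0.

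Hsd11b1 (ENSMUSG00000016194.15) encodes the enzyme of the endoplasmic reticulum that regenerates active corticosterone from its inert 11-keto form, and so sets how much hormone reaches the receptor inside a cell. It had 32.8, 117 and 187 normalized counts in irradiated libraries 1, 2 and 3, against 27.9, 121 and 290.5 in non-irradiated ones. The libraries fell into 3 levels by replicate number, with a 10.4-fold span from the lowest to the highest library, and the groups overlapped. The means were 112 ± 77.0 in irradiated and 146 ± 133 in non-irradiated cells (SD, n = 3 each), with a log2 fold change of -0.15 ± 0.28 (SE). The pair of replicate 1 rests on 30 irradiated and 33 non-irradiated reads, and its log2 ratio of 0.23 has a 95% counting interval of -0.48 to 0.95. The ratio of replicate 2 was -0.04 (-0.41 to 0.33). In replicate 3 the ratio was -0.64 (-0.91 to -0.37), the one interval of the 3 that did not reach 0, and without both of its libraries the log2 fold change was 0.09.

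None of the 5 genes has an exon that overlaps an exon of another gene in GENCODE release M21, though the authors' annotation is of another build. Compared per kilobase of exon, with lengths from that release, Sgk1 was the highest of the 5 in each of the 6 libraries, at 2048 to 3638 normalized counts per kilobase. Nr3c1 came next with 481 to 788, above Tsc22d3 in 6 of 6 libraries. Tsc22d3 (363 to 408, median 386) and Fkbp5 (223 to 400.3, median 301) overlapped, with Tsc22d3 above Fkbp5 in 5 of 6 libraries, the irradiated library of replicate 2 being the exception. Hsd11b1 was far lower, at 6.57 to 68.3 and a median of 28.0 normalized counts per kilobase.

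Start regions of these genes were searched for the full glucocorticoid response element, AGAACA followed by any 3 bases and TGTTCT, a 15-base palindrome to which the receptor binds as a dimer, and for a single 6-base arm of it, AGAACA or TGTTCT, on both strands; a full element contains both arms. RefSeq (GRCm38.p6) gave 11 start regions of 300 bases for 4 of the genes, Sgk1 with 6, Tsc22d3 with 3, Fkbp5 and Hsd11b1 with 1 each. Only 3 of 32851 start regions of all genes (0.00913%) held the full element, and 1 of them belongs to Sgk1; the others belong to Acnat2 and Gm35041. The element of Sgk1 begins 189 bases before 1 of its 6 annotated starts. Which start these cells used was not tested. The element is shown because it is the only full match among the response genes, and capitals mark its 15 bases. It lies on the plus strand of GRCm38.p6 within chr10:21993640-21993939, a region that runs from 250 bases before a Sgk1 start to 50 bases after it and holds 1 further arm outside the element.
Sgk1: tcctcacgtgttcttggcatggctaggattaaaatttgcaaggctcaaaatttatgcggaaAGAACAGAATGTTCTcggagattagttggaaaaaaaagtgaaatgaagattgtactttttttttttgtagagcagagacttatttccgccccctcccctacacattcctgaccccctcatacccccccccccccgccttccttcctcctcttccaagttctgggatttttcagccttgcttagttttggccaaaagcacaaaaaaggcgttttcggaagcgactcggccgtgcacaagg
A single arm was found in 4 of the 11 regions (36.4%), against 19.0% of all 32851, and these 4 are 3 regions of Sgk1 and 1 of Tsc22d3. The Tsc22d3 region, on the minus strand within chrX:140600473-140600772, is shown beside that of Sgk1, and capitals mark the arm. These were the 2 genes whose 3 pairs each shared a direction, higher for Sgk1 and lower for Tsc22d3, as did 22.8% of all genes tested. A link between the arms and these directions was not tested.
Tsc22d3: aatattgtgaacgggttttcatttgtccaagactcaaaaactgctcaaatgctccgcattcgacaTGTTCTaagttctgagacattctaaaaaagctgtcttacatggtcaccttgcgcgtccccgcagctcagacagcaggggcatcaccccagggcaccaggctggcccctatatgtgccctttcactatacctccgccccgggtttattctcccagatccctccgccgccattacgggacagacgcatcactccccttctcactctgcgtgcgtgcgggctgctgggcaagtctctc
The regions of Fkbp5 and Hsd11b1 held neither. These matches describe the letters in these windows and show no binding, and the other start regions of Sgk1 and Tsc22d3 held no full element. Only exact matches within the windows were counted, and imperfect or more distant elements were not searched.

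Replicate number was the main axis along which 4 of the 5 genes varied. In limma's moderated F test over the replicate numbers, fitted over all genes with irradiation as a term, 2165 of 16141 genes (13.4%) passed an adjusted p of 0.05, and 4 of the 5 did. Hsd11b1 was 3.84-fold as high in replicate 2 and 7.48-fold as high in replicate 3 as in replicate 1 (adjusted p = 0.00197 in limma). Sgk1 was 1.52-fold and 1.54-fold as high in replicates 2 and 3 as in replicate 1 (adjusted p = 0.00416 in limma). Fkbp5 was 1.65-fold as high in replicate 2 and 1.28-fold in replicate 3 (adjusted p = 0.00885 in limma). Nr3c1 ran the other way, at 0.697-fold in replicate 2 and 0.847-fold in replicate 3 relative to replicate 1 (adjusted p = 0.0454 in limma). Tsc22d3 did not pass (adjusted p = 0.998 in limma), with mean normalized counts of 1667, 1676 and 1675 in replicates 1, 2 and 3. The call of Nr3c1 ended without non-irradiated replicate 1 (adjusted p = 0.0915 in limma), 2 (0.0667) or 3 (0.0610) or irradiated replicate 3 (0.0617). With limma's variance prior taken without a trend, the calls of all 4 ended, at adjusted p-values from 0.0832 to 0.277 and with 64 genes passing in all.

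Summed marker levels differed between the replicate numbers too. Summed fibroblast markers averaged 2869930 normalized counts in replicate 1, 1894443 in replicate 2 and 2109734 in replicate 3. Col1a1 was the highest gene in this sum, and the fibroblast markers did not all move with it. Relative to replicate 1, Lum stood at 19.0-fold and 16.4-fold in replicates 2 and 3, Pdgfra at 1.09-fold and 1.33-fold, and Vim at 1.12-fold and 1.21-fold. The other fibroblast markers lay below replicate 1 in both. Endothelial markers averaged 609, 219 and 156, immune markers 219.7, 139.6 and 90.1, and epithelial markers 21.2, 39.5 and 14.5 in replicates 1, 2 and 3. Glial and muscle markers averaged 1706, 2329 and 3931. Their part in the differences of Hsd11b1, Sgk1, Fkbp5 and Nr3c1 was not tested.

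Split by sums of squares of the log2 values, the replicate number took 97.5% of the variation of Hsd11b1, 96.7% of Fkbp5, 87.2% of Nr3c1 and 86.8% of Sgk1. Irradiation took 0.376%, 0.926%, 0.945% and 12.1% of these. For Tsc22d3 the split was the reverse, with 98.8% for irradiation and 0.224% for the replicate number. These are shares of a small total, as its highest library was 1.13-fold its lowest. Its spread within groups lay below counting error, and its unadjusted p in limma was 0.139. Summed over all genes tested, the replicate number took 59.0%, irradiation 13.6% and the remainder 27.4%.

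**Figure D3:**
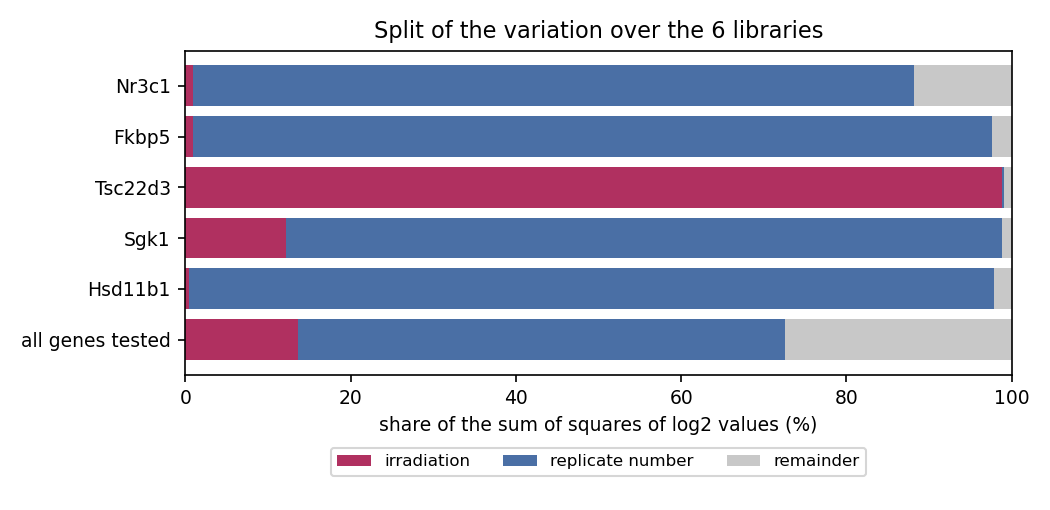
Share of the sum of squares of log2 values (horizontal axis, %) taken by irradiation, replicate number and the remainder over the 6 libraries, for each of the 5 genes and summed over all genes tested. Replicate number fills 86.8% or more of the bar of each gene but Tsc22d3, whose bar is 98.8% irradiation. Bars show shares only, and the libraries of Tsc22d3 spanned 1.13-fold in all.

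Across the 6 libraries Nr3c1 and Fkbp5 ran opposite to each other, with a Pearson correlation of log2 values of -0.91 (n = 6 libraries). Sgk1 correlated with Hsd11b1 at 0.84 and with Fkbp5 at 0.76, and Nr3c1 with Sgk1 at -0.66. Tsc22d3 had correlations between -0.30 and 0.13 with the other four. These values describe 6 libraries that share 3 replicate numbers and their size factors, and so are not 6 independent points.

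The genes most like each of the 5, among 11889 named genes that averaged 50 normalized counts or more, were ranked by the same correlation. For Nr3c1 they were Creb3l1, a membrane-bound transcription factor, and Dnm3os, a long non-coding RNA, both at r = 0.999, with 315 genes at 0.95 or more. For Fkbp5 they were Cks2, a subunit of cyclin-dependent kinases, and Haus3, a subunit of the augmin complex of the spindle, at r = 0.9997 and 0.999, and 251 genes reached 0.95. For Sgk1 they were Ccnl1, a cyclin, and Srf, the serum response factor, at r = 0.999 and 0.998, with 176 genes at 0.95 or more. For Hsd11b1 they were Inhbb, an inhibin and activin subunit, and Homer2, a scaffold protein, at r = 0.995 and 0.993, with 146 genes at 0.95. Tsc22d3 had 9 genes at 0.95 or more, led by Tmem29 and Kifbp, both at r = 0.98. Tmem29 had 473 ± 3.51 normalized counts in irradiated and 530.2 ± 7.36 in non-irradiated cells (SD, n = 3 each). Kifbp, a kinesin-binding protein, had 1361 ± 18.5 in irradiated and 1587 ± 21.2 in non-irradiated cells. Tmem29 and Kifbp were picked for their likeness to Tsc22d3, so the distance between their groups follows from that choice. It is no separate result on irradiation. All the likenesses above are over 6 libraries that share 3 replicate numbers.

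Of the receptor's chaperone complex, 0 of 11 tested members of the list passed in limma, edgeR or DESeq2, 0 had an unadjusted p under 0.05, and the median log2 fold change was 0.00 against 0.01 over all genes. The members of smallest p were Dnajb1, an Hsp40 co-chaperone, with 2806 ± 204 normalized counts in irradiated and 2594 ± 209.5 in non-irradiated cells, and Stub1, a ubiquitin ligase for Hsp90 clients, with 6229 ± 566 in irradiated and 6741 ± 888 in non-irradiated cells (SD, n = 3 each). Between replicate numbers 5 of the 11 (45.5%) passed in limma's F test, against 13.4% of all genes: Hsp90aa1, the inducible Hsp90; Stip1, which links Hsp70 to Hsp90; Fkbp4, the FKBP52 co-chaperone that raises hormone affinity; Ppid, a cyclophilin; and Ppp5c, a phosphatase. All 5 were highest in replicate 2, as was Fkbp5, at 1.31-fold (Hsp90aa1) to 1.54-fold (Ppid) of replicate 1. Of the 11, 10 were highest in replicate 2, against 34.3% of all genes.

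Coregulators, the proteins that the DNA-bound receptor recruits, had positive log2 fold changes in 10 of 10 members with a median of 0.10, against 8311 of 16141 genes and a median of 0.01 over all genes tested, and 0 passed, 0 had an unadjusted p under 0.05 and 0 were higher in 3 of 3 pairs. By pair the list's median log2 ratio was -0.17, 0.45 and 0.10 in replicates 1, 2 and 3, and without both libraries of replicate 2 the median over the list was -0.04. Crebbp, an acetyltransferase coactivator, had 2620.4 ± 123 normalized counts in irradiated and 2268 ± 409.7 in non-irradiated cells (SD, n = 3 each), and its lowest value was 1796 in non-irradiated replicate 2. Between replicate numbers 1 of the 10 passed, a share near the 13.4% of all genes; it was Ncoa2, a coactivator of the p160 family, at 0.584-fold in replicate 2 relative to replicate 1 (adjusted p = 0.0221 in limma).

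Of the 9 genes of corticosteroid synthesis, metabolism and export and the related receptor, 5 were tested, and 0 passed. The mineralocorticoid receptor gene Nr3c2 averaged 2.01 normalized counts in irradiated and 7.36 in non-irradiated cells and stayed under the filter, as did Hsd11b2, the enzyme that inactivates corticosterone, at 4.48 in irradiated and 6.30 in non-irradiated cells. H6pd, which feeds NADPH to the enzyme encoded by Hsd11b1, had 4537 ± 359 normalized counts in irradiated and 4289 ± 916 in non-irradiated cells (SD, n = 3 each). Abcb1a, which encodes a P-glycoprotein that exports steroids, had 903 ± 289 in irradiated and 956 ± 207 in non-irradiated cells. Between replicate numbers 2 of the 5 passed, against 13.4% of all genes, Abcb1a and Abcb1b (adjusted p = 0.0243 and 0.00147 in limma), each highest in replicate 2.

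Other genes known to be induced by glucocorticoids numbered 19 tested members, of which 0 passed in limma; 10 log2 fold changes lay above 0 and 9 below, with the median at 0.04. There were 2 of 19 at an unadjusted p under 0.05, against 3.26% of all genes, both higher, as were 1.93% of all genes: Errfi1, a feedback inhibitor of the EGF receptor, and Dusp1, a MAP kinase phosphatase. Errfi1 had 11636 ± 5928 normalized counts in irradiated and 6850.5 ± 2387 in non-irradiated cells, and Dusp1 had 4613 ± 1397 in irradiated and 3872 ± 1024 in non-irradiated cells (SD, n = 3 each). Errfi1 alone of the 19 passed in DESeq2, and in the authors' deposited table its log2 fold change was 0.66 with an adjusted p = 0.000363. Of the 19, 5 were higher and 0 lower in 3 of 3 pairs, against 11.8% and 11.0% of all genes. Between replicate numbers 7 of the 19 passed in limma (36.8%, against 13.4% of all genes), from Angptl4, an inhibitor of lipoprotein lipase, at 5.02-fold in replicate 2 relative to replicate 1, down to Cdkn1c, a CDK inhibitor, at 0.310-fold.

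Genes known to be repressed by glucocorticoids numbered 13 tested members, of which 0 passed in limma; their log2 fold changes ran from -0.44 to 0.96, with the median at 0.04. There were 4 of 13 at an unadjusted p under 0.05, against 3.26% of all genes, and all 4 were higher, as were 1.93% of all genes. In 3 of 3 pairs 5 of the 13 were higher and 2 lower, Mmp3 and Mmp13, against 11.8% higher and 11.0% lower of all genes. The 2 of smallest p were Ptgs2, the inducible cyclooxygenase, with 57153 ± 18766 normalized counts in irradiated and 37697 ± 8221 in non-irradiated cells, and Lif, a cytokine that signals through gp130, with 3375 ± 1880.1 in irradiated and 1553 ± 497 in non-irradiated cells (SD, n = 3 each). Both passed in DESeq2, and in the authors' deposited table their adjusted p-values were 1.84e-05 and 4.86e-05. Between replicate numbers 11 of the 13 passed in limma (84.6%, against 13.4% of all genes), and in different directions. Mmp13, a collagenase, was 12.2-fold as high in replicates 2 and 3 as in replicate 1, whereas Il6 stood at 0.221-fold and 0.143-fold there.

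**Figure D4:**
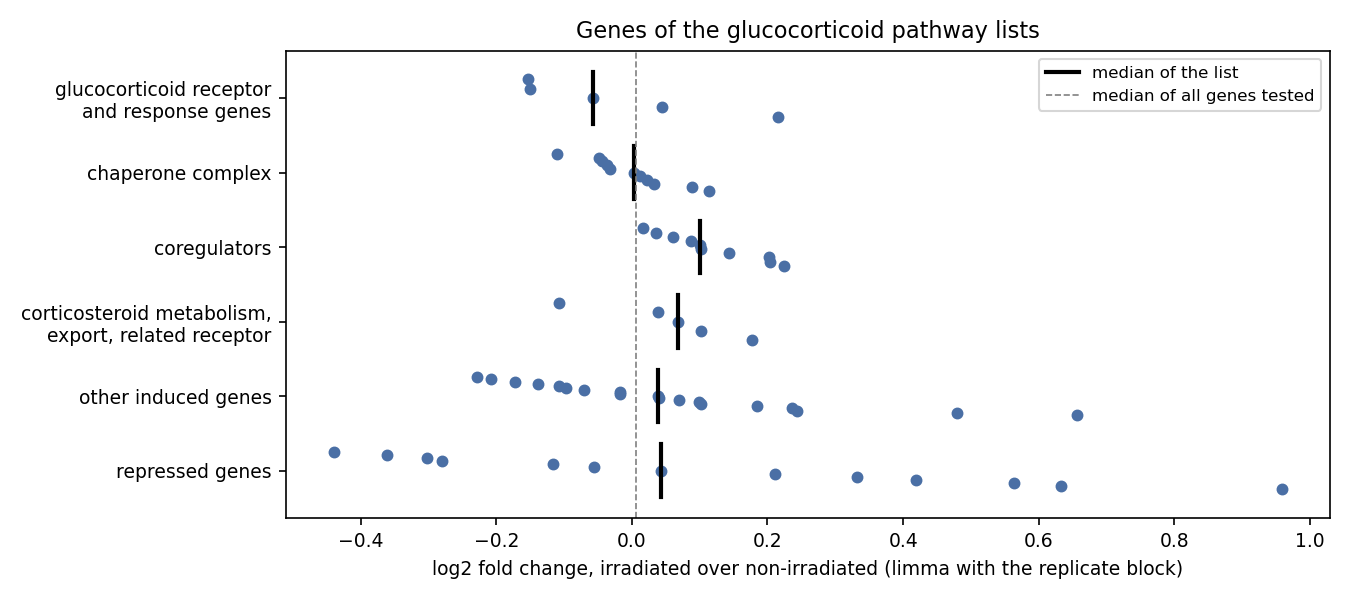
Log2 fold change of irradiated over non-irradiated cells (horizontal axis, limma with the replicate block) for each tested gene of the receptor and response set and of the 5 pathway lists; black bars give list medians and the dashed line the median of all genes tested (0.01). The list medians lie between -0.06 and 0.10, and the widest spread, from -0.44 to 0.96, is that of the repressed genes.

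**Figure D5:**
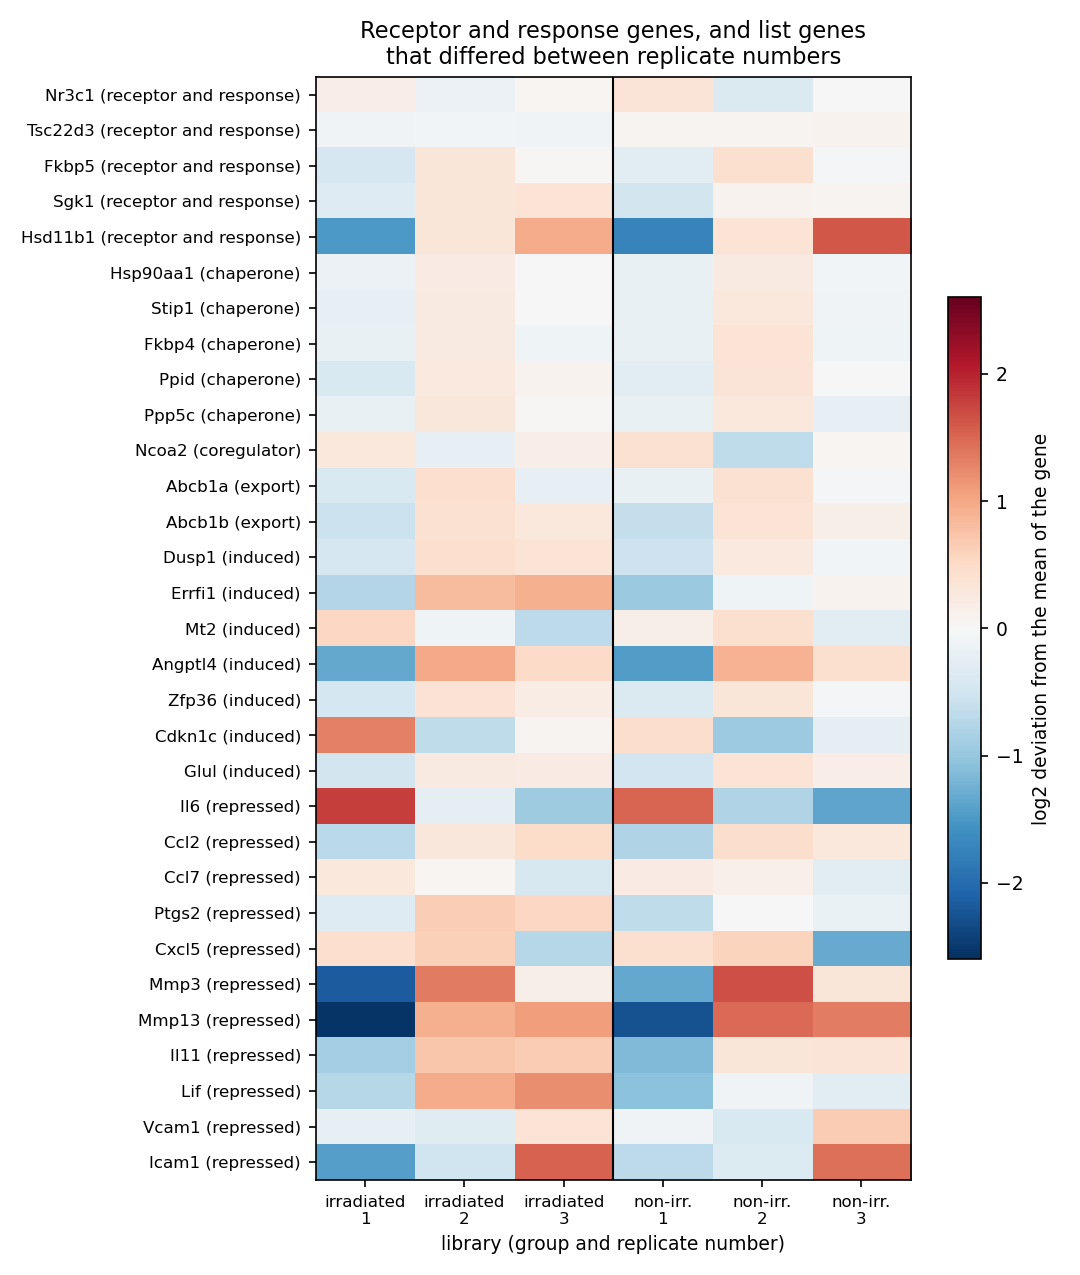
Log2 deviation of each library from the mean of the gene (colour) for the 5 receptor and response genes and for the list genes that differed between replicate numbers in limma, irradiated libraries on the left of the line and non-irradiated on the right. Both groups show replicate 1 lowest for Hsd11b1, Mmp13 and Angptl4 and highest for Il6, while Tsc22d3 stays pale throughout.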

How the data were processed

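RNA from 6 libraries was measured by RNA-seq. Per the submitters' processing notes, the tools were FastQC 0.11.9, Trimmomatic 0.39, StringTie 2.1.7 and HISAT2 2.2.1, on build GRCm39. The sources used here give no settings, strand or annotation release. The authors deposited a signal per gene and library, a normalized count, with DESeq2 log2 fold changes and their standard errors, a test statistic (a score) and p-values, per the file headers. Of 20745 rows, 80 repeated an identifier and were dropped. Divided by the smallest value above 0 of its library, 100% of values came out as whole numbers to within 0.001. These were taken as reads, which was not tested, and the read numbers and counting errors given here rest on it.

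Values were taken as log2(normalized count + 1) for genes that reached 10 normalized counts in 3 or more libraries. They were compared with limma 3.58.1 (R 4.3.3; eBayes with a trend), 2-sided, with Benjamini-Hochberg adjustment over all genes and the replicate number from the titles as a block, which leaves 2 residual degrees of freedom. A fold change on this scale understates that of low genes. The block was taken because the authors' deposited fold changes were met within 0.000861 by DESeq2 1.42.0 with the replicate number as a term. Deviations from the group means correlated at 0.64, 0.47 and 0.57 between same-numbered libraries across 13054 genes, against at most 0.01 between others. Such deviations cancel out within a group, so positive correlations of same-numbered libraries by themselves lower those between others. Counting intervals (95%) cover counting error only. On simulated data with 200 changed genes among 16141, the blocked fit recovered 55.3% of 1.5-fold, 85.3% of 2-fold and 95.3% of 4-fold changes between irradiated and non-irradiated libraries. Changes as small as those of the 5 genes were not simulated. Alternatives were other pseudocounts (0.5 and 5), no filter or one of 50, TMM or quantile scaling, no trend, no block, edgeR 4.0.16 and DESeq2 on the recovered reads, the deposited results and left-out libraries.

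The genes and lists were chosen with earlier results of these data known. Named genes are the receptor and response genes, the 2 genes of smallest p in each list, and the 2 most correlated with each gene; the others were named after their values were seen. One gene that this rule names is not reported here. Start regions come from RefSeq and exon lengths from GENCODE M21, both on GRCm38, so no other coordinates are given.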

Additional observations from a re-analysis of the deposited data

How the results depend on the processing

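Under 14 alternatives, the log2 fold changes of Tsc22d3, Sgk1 and Fkbp5 between irradiated and non-irradiated cells kept their direction, and no alternative brought any of the 5 genes past the threshold. Leaving out both libraries of a replicate number gave -0.16 to -0.15 for Tsc22d3, 0.18 to 0.26 for Sgk1 and -0.12 to -0.01 for Fkbp5. It gave -0.05 to 0.14 for Nr3c1, which turned to -0.049 without replicate 2, and -0.34 to 0.09 for Hsd11b1, which turned to 0.093 without replicate 3; each other alternative kept the direction of these 2 genes. The fit without the replicate block gave the same fold changes and 0 genes past the threshold, where the blocked fit called 3. No filter on low values and no trend also gave 0, whereas 24 genes passed in DESeq2 on the recovered reads and 24 genes in the authors' deposited results, and 32 to 64 with a pair left out. Among the lists, the median log2 fold change moved most for the repressed genes, to 0.31 without both libraries of replicate 1.

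Of the differences between replicate numbers, 2165 genes passed, against 1154 without a filter, 64 without a trend and 2133 to 4498 without each library in turn, the highest without irradiated replicate 2. Leaving out single libraries was chosen after seeing the data. Without a trend the adjusted p in limma was 0.277 for Nr3c1, 0.156 for Fkbp5, 0.150 for Sgk1 and 0.0832 for Hsd11b1, and Nr3c1 also did not pass without a filter (0.0973). Without each library in turn the adjusted p in limma was 0.00137 to 0.0915 for Nr3c1, at most 0.0115 for Fkbp5, 0.0147 for Sgk1 and 0.00148 for Hsd11b1, and at least 0.994 for Tsc22d3. The cause was not tested. With 30 to 33 reads of Hsd11b1 in replicate 1, counting error limits the ratio of that pair.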
